A study of Mus musculus with 6 samples.

Results

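The genes described here are 40 Wnt pathway genes: the secreted ligands, their receptors and the proteins that carry the signal to the nucleus. They were chosen by gene symbol. A feature of the array (a transcript cluster, the unit that carries 1 expression value) was taken where its annotation gave exactly 1 symbol and that symbol was on the list. A gene with several such features was read from the brightest, by its mean over the 6 arrays. This gave 39 of the 40 genes, out of 22180 genes measured in all. Tcf7, encoding the transcription factor TCF1, had no feature with that single symbol and was not analysed here. The cells were mouse hair follicle stem cells, sorted by flow cytometry from the skin of animals at postnatal day 49 on CD34 and α6-integrin, surface proteins that mark the follicle bulge. Wild-type mice (WT, 3 arrays) were compared with K14-sPLA2-IIA transgenic mice (TG, 3 arrays). The transgene is named for a keratin 14 promoter, active in basal keratinocytes and in the outer root sheath, and for secreted phospholipase A2 group IIA, an enzyme that releases fatty acids from phospholipids. Whether each array came from a separate animal or from a pool, and whether the transgenic line had a single founder, is not given in the sources used here, so the spread behind each p-value is that between these samples and may be technical. The question of the comparison is how the transgene altered expression in these stem cells.

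Wnt proteins are lipid-modified ligands that act on nearby cells through Frizzled receptors and the co-receptors LRP5 and LRP6. In the canonical branch, receptor engagement stops a destruction complex from degrading β-catenin, which then enters the nucleus and works with TCF and LEF transcription factors. In skin, the pathway is needed to form hair follicles, and its activity in the bulge and hair germ rises when resting follicles start a new growth phase.

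The authors deposited 1 expression value per feature and array, on a scale taken as log2 from the range of the values, and fold changes hold only for that base. Values are given in the order of arrays 1, 2 and 3. Levels of different genes cannot be set against each other on this array, and each gene is compared only with itself. The median over all features lay between 5.90 and 5.99 on the 6 arrays. Pla2g2a, the gene of the transgene's enzyme, was higher in TG by 6.38 ± 0.27 (SE, adjusted p = 0.00255 in limma). WT array 3 and TG array 3 stood apart from the others on the first principal component of all genes, which held 64.6% of the variance, with TG array 1 in between. The sort marker Cd34 was also highest on these arrays, at 13.07 in WT and 12.42 in TG, against 9.78 and 9.89 on WT arrays 1 and 2. It read 11.57 on TG array 1 and 9.65 on TG array 2. The bulge keratin Krt15 lay between 13.21 and 13.50. Itga6, encoding the other sort marker α6-integrin, was lowest on the arrays numbered 3. It read 10.41, 10.48 and 10.14 in WT and 10.32, 10.49 and 10.00 in TG, and differed between genotypes by -0.07 ± 0.175 (SE). Of the 13 bulge markers listed, 12 were measured.

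**Figure D1:**
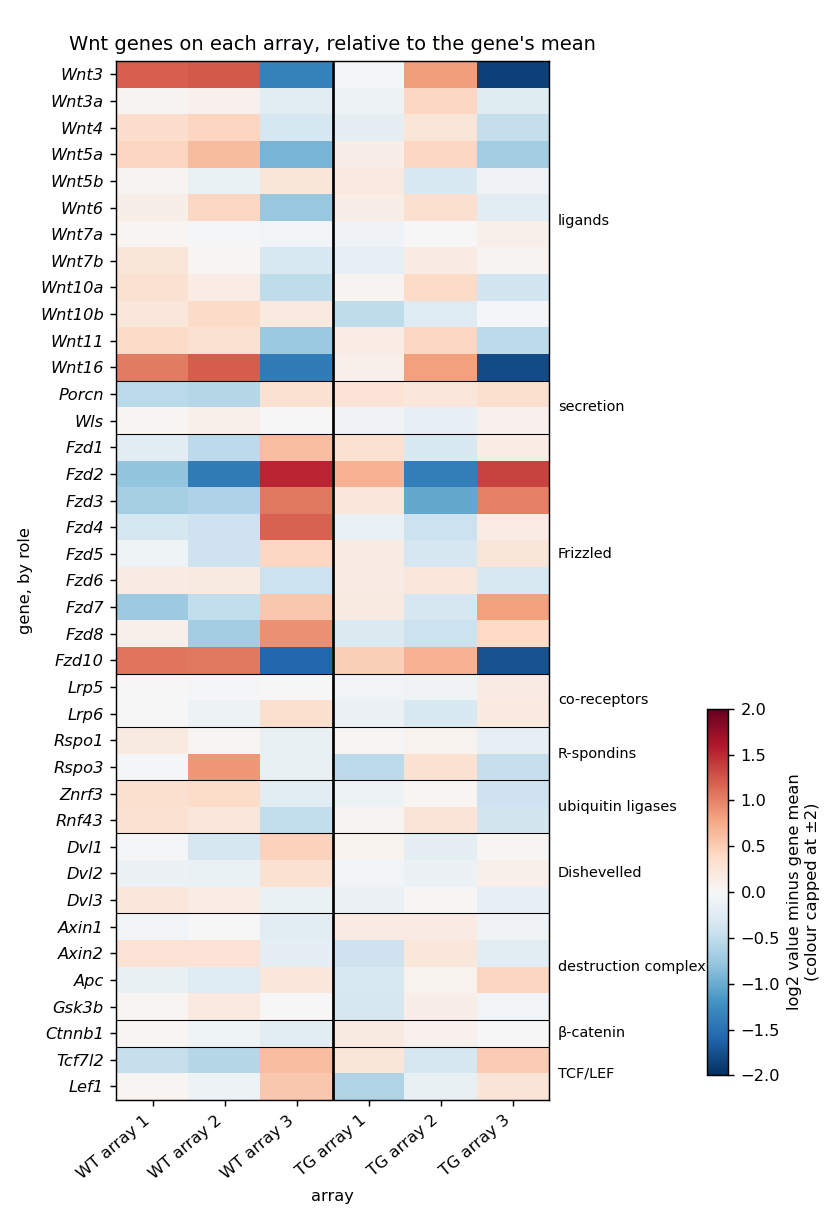
Colour gives each gene's log2 value on an array minus that gene's mean over the 6 arrays, with genes in rows grouped by role and arrays in columns, WT left and TG right of the black line. The strongest colours stand in the columns of WT array 3 and TG array 3, where Wnt3, Wnt16 and Fzd10 are low and Fzd2 and Fzd3 are high, and Wnt10b is the row in which all TG arrays lie below all WT arrays.

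No Wnt gene passed the threshold of 0.05 on the adjusted p between the genotypes (0 of 39, limma over all 22180 genes), where 0.00451% of all genes did. At an unadjusted p under 0.05 there was 1 gene lower in TG, Wnt10b, or 2.56% of the 39, against 0.843% of all genes, and 0 genes higher, against 1.93%. This count of genes at an unadjusted p under 0.05 was 0 of 39 when WT array 2 was left out. It was 5 of 39 when WT array 3 or both arrays numbered 3 were left out. Over all genes the share in either direction was 2.773% with all arrays and 2.2% without WT array 2. It was 4.788% without WT array 3 and 5.92% without both arrays numbered 3. With the arrays paired by their number, 0 of 39 passed the adjusted threshold and 8 of 39 had an unadjusted p under 0.05. Of these, 6 were lower in TG (15.4% of the 39, against 3.86% of all genes) and 2 higher (5.13%, against 4.59%). The share of all genes in either direction was 8.449% in this fit. This pairing was chosen from these same values, as described below. Of the 39 differences 18 were above 0 and 21 below, with a median of -0.044, and over all genes the median was -0.0075. For 4 genes (10.3%) the difference exceeded the larger of the SDs of the genotypes, as it did for 15.3% of all genes. These were Wnt10b, Porcn, Axin1 and Ctnnb1.

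Wnt10b, whose product is a canonical ligand made in the follicle epithelium at the start of hair growth, was the 1 Wnt gene whose genotypes did not overlap. It read 7.02, 7.17 and 6.98 in WT and 6.28, 6.52 and 6.76 in TG. All TG arrays lay below all WT arrays, with TG array 3 closest to WT. It was the 1 gene of the 39 with this order, or 2.56%, against 3.21% of all genes, and 0 of 39 had the opposite order, against 3.99%. The difference was -0.53 ± 0.16 (SE), or 1.45-fold lower in TG, with limma p-values of 0.0136 before and 0.99996 after adjustment. An exact permutation test of 3 against 3 arrays cannot give a two-sided p below 0.1. The unadjusted p was 0.0505 without WT array 2, where the difference was -0.48. Among the cell type marker lists, only the mean level of fibroblast markers also separated the genotypes, and it is named here for that. It lay between 6.01 and 6.30 in WT and between 6.50 and 6.72 in TG. All 6 listed were measured and all 6 differences were above 0, from 0.01 for Col1a2 to 0.92 for Dcn. Only 1 of the 6, Pdgfra, separated the genotypes by itself. It read 5.07, 5.08 and 4.71 in WT and 5.46, 5.27 and 5.18 in TG, below the array medians over all features (5.90 to 5.99). The part of these markers in the Wnt10b values was not tested. In bulk samples such as these, fewer cells of a type and less RNA per cell cannot be told apart.

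The bases before the start of Wnt10b are shown for that reason. They are the 250 bases upstream of the annotated start in RefSeq (GRCm38.p6, chr15:98778151-98778400, minus strand), written 5′ to 3′ in the direction of transcription.
Wnt10b: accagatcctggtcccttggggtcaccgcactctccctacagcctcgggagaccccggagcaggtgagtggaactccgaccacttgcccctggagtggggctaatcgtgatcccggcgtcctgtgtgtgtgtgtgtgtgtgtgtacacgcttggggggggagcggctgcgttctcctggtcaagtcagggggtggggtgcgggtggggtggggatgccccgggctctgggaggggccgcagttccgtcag
The window held none of the motifs searched on both strands: the TCF/LEF core CTTTGA, the GC box GGGCGG bound by Sp and Krüppel-like factors, and the AP-1 motif TGANTCA. Over the promoters of all 27025 genes in the table, these were found in 14.1%, 32.96% and 6.85% of windows of this length. Of the 25 Wnt genes with an entry, 3 held the TCF/LEF core (Fzd1, Gsk3b and Wnt11), 19 the GC box and 2 the AP-1 motif (Dvl2 and Wnt5b). The Wnt gene windows were rich in CG dinucleotides, with a median of 24 against 6 over all genes, and that of Wnt10b held 14. No match says only that these letters are not in this window.

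**Figure D2:**
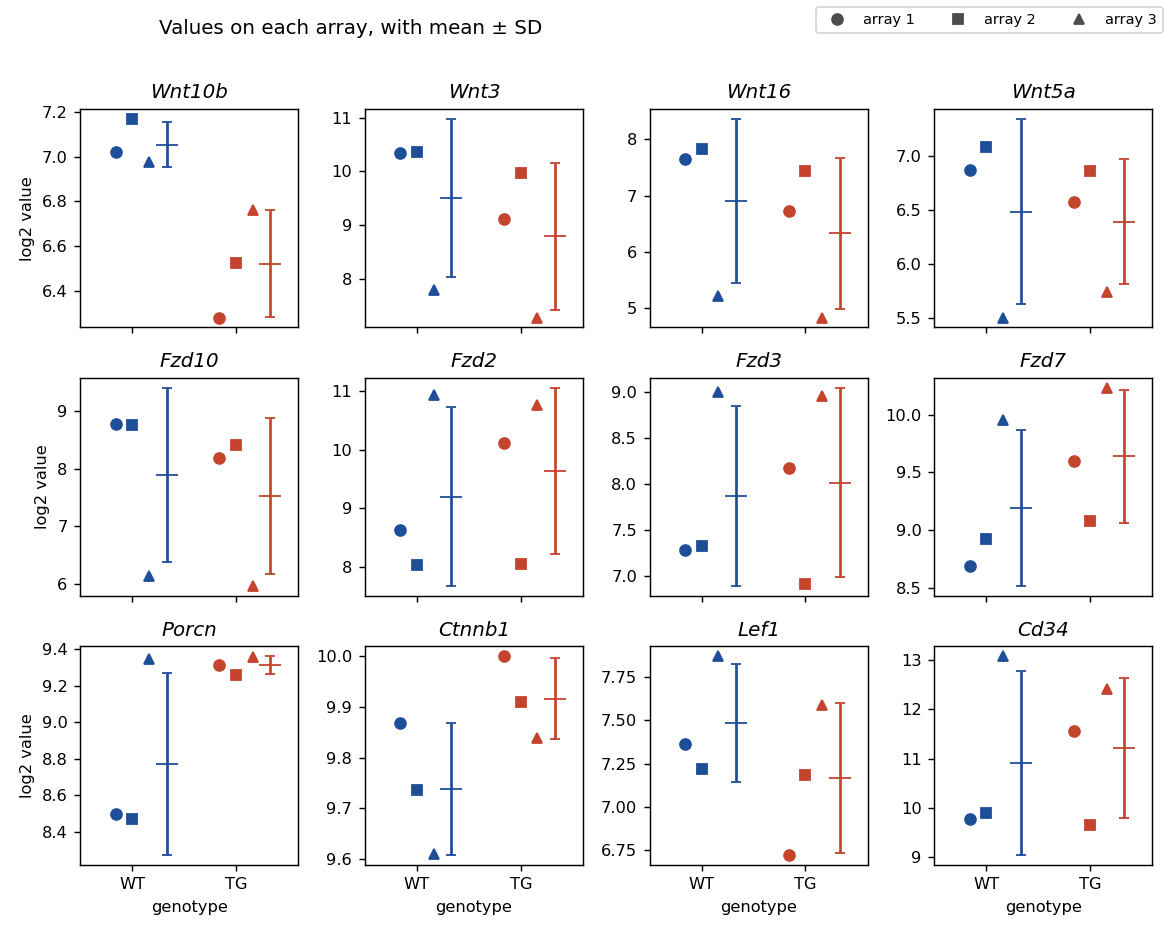
Each panel shows a gene's log2 value (vertical axis, scaled per gene) on the WT (blue) and TG (red) arrays, with circles, squares and triangles for arrays 1, 2 and 3, and the mean ± SD (n = 3) beside them. Wnt10b separates the genotypes, while in Wnt3, Wnt16, Wnt5a and Fzd10 the triangles are the lowest symbols of both genotypes and in Fzd2, Fzd3, Fzd7 and the sort marker Cd34 the highest.

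Among the other ligands, differences ran from -0.71 for Wnt3 to 0.15 for Wnt6, and 6 of the 12 ligands lay above 0. Wnt3, a canonical ligand, differed by -0.71 ± 0.91 (SE) and Wnt16, a ligand that can also act outside the canonical branch, by -0.57 ± 0.89. In both genes 2 of the 3 TG values lay within the WT range, and the SD within each genotype exceeded the difference. Wnt4, known from bulge and epidermal keratinocytes, differed by -0.29 ± 0.27. Wnt10a, needed for the growth of ectodermal appendages, differed by 0.04 ± 0.28, and Wnt6 by 0.15 ± 0.32. Wnt5a, the best known non-canonical ligand, differed by -0.09 ± 0.47, and its close relative Wnt5b by -0.11 ± 0.18. Wnt3a and Wnt11 differed by 0.05 ± 0.20 and 0.03 ± 0.37. The closely related ligand genes Wnt7a and Wnt7b had differences of 0.02 ± 0.12 and 0.03 ± 0.19.

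Porcn and Wls act in every cell that secretes a Wnt: porcupine attaches the lipid and Wntless carries the ligand to the surface. Porcn read 8.50, 8.47 and 9.35 in WT and 9.32, 9.26 and 9.36 in TG. WT arrays 1 and 2 were low and the other 4 arrays lay close together, so the genotypes overlapped through WT array 3. The difference was 0.54 ± 0.25 (SE, unadjusted p = 0.0688). Wls read 10.46, 10.53 and 10.42 in WT and 10.36, 10.26 and 10.50 in TG, which overlapped, with a difference of -0.09 ± 0.13.

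Frizzled genes encode the receptors that bind the ligands, and 6 of the 9 measured had a difference above 0. None had an unadjusted p under 0.05. Fzd7, a receptor of many epithelial stem cells, differed by 0.45 ± 0.41 (SE) and Fzd2 by 0.44 ± 0.94. At the other end Fzd10 differed by -0.37 ± 0.91, Fzd4 by -0.28 ± 0.44 and Fzd8 by -0.22 ± 0.42. Fzd3 and Fzd6, which have roles in hair patterning and planar cell polarity, differed by 0.15 ± 0.64 and 0.05 ± 0.23. Fzd1 and Fzd5 differed by 0.09 ± 0.32 and 0.05 ± 0.26.

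Lrp5 and Lrp6 encode the co-receptors. Lrp5 read 11.27, 11.27 and 11.29 in WT and 11.24, 11.22 and 11.45 in TG, a difference of 0.03 ± 0.12 (SE) that turned to -0.0102 with quantile normalization. Lrp6 read 10.09, 9.99 and 10.41 in WT and 9.96, 9.79 and 10.29 in TG, a difference of -0.15 ± 0.19. In both genes the genotypes overlapped and array 3 was the highest of its genotype. A second, dimmer feature of Lrp6 gave -0.11.

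R-spondins amplify Wnt signals by removing the ubiquitin ligases ZNRF3 and RNF43, which otherwise clear Frizzled from the membrane. All 4 of these genes had differences below 0. Rspo3 read 6.74, 7.66 and 6.64 in WT and 6.26, 7.09 and 6.32 in TG. The arrays numbered 2 were high in both genotypes, and each TG array lay below the WT array of its number, with overlap between the genotypes. The difference was -0.46 ± 0.34 (SE), and that of Rspo1 -0.05 ± 0.14. Znrf3 read 9.92, 9.97 and 9.37 in WT and 9.50, 9.64 and 9.18 in TG, which overlapped through WT array 3. Its difference was -0.31 ± 0.21, and that of Rnf43 -0.03 ± 0.27, the last turning to 0.0064 with arrays centred on their medians. Both Znrf3 and Rnf43 are themselves switched on by β-catenin in several tissues.

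In the cytoplasmic relay, differences ran from -0.27 for Axin2 to 0.18 for Ctnnb1. Ctnnb1, encoding β-catenin, read 9.87, 9.74 and 9.61 in WT and 10.00, 9.91 and 9.84 in TG. Each TG array lay above the WT array of its number, but TG array 3 lay below WT array 1, so the genotypes overlapped. The difference was 0.18 ± 0.13 (SE, unadjusted p = 0.215). Of the destruction complex genes, Axin1, the scaffold, differed by 0.17 ± 0.14, Gsk3b, the kinase, by -0.16 ± 0.16, and Apc by 0.12 ± 0.23. Axin2, a scaffold that is also a standard readout of canonical signalling, read 9.26, 9.27 and 8.80 in WT and 8.56, 9.20 and 8.76 in TG. Its lowest value was that of TG array 1 and the genotypes overlapped, with a difference of -0.27 ± 0.22. A second, dimmer Axin2 feature gave 0.16, so the 2 features disagreed in sign. The Dishevelled genes Dvl1, Dvl2 and Dvl3, whose products link Frizzled to the complex, differed by -0.06 ± 0.22, -0.04 ± 0.16 and -0.16 ± 0.15.

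Of the nuclear factors, Lef1, which works with β-catenin in the hair germ and in hair shaft precursors, read 7.36, 7.22 and 7.87 in WT and 6.72, 7.18 and 7.59 in TG. TG array 1 was lowest and the arrays numbered 3 were highest in their genotype, with overlap between the genotypes. The difference was -0.32 ± 0.27 (SE, unadjusted p = 0.277). Tcf7l2, encoding TCF4, differed by 0.28 ± 0.37.

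**Figure D3:**
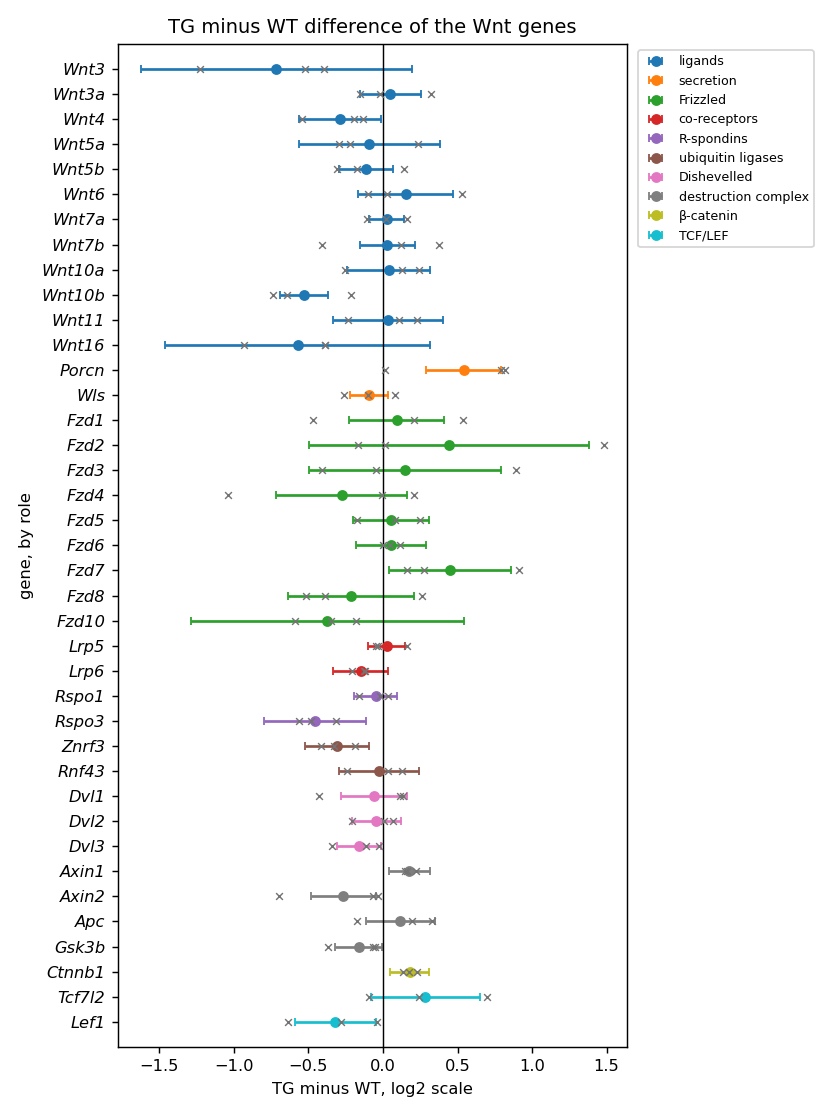
Filled points give the TG minus WT difference of each Wnt gene on the log2 scale with its limma standard error as the bar, coloured by role, and grey crosses give the 3 differences between arrays of the same number. Bars are long for Wnt3, Wnt16, Fzd2 and Fzd10. All crosses lie left of 0 for 12 of the 39 genes, among them Wnt3, Wnt10b, Wnt16, Fzd10, Rspo3 and Znrf3, and right of 0 for 4.

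Deviations from genotype means correlated between the 2 arrays of a number at 0.67 for number 2 and 0.74 for number 3. For number 1 the correlation was only 0.20, and WT array 1 matched TG array 2 more closely (0.50). Genotypes were also compared within numbers, with the array number as a replicate block. This pairing was chosen from these same values, not from the labels, and its p-values carry that limit. With the arrays paired, 6 Wnt genes had an unadjusted p under 0.05 as lower in TG (15.4%, against 3.86% of all genes) and 2 as higher (5.13%, against 4.59%). None passed after adjustment over all genes (lowest adjusted p = 0.538 in limma). The lower ones were Rspo3 (unadjusted p = 0.00709 in this fit), Wnt16 (0.00991), Wnt3 (0.00999), Wnt10b (0.0104), Fzd10 (0.0258) and Znrf3 (0.0316), and the higher ones Porcn (0.0316) and Fzd7 (0.0435). Array values of Wnt3, Wnt16 and Fzd10 are given for their large array 3 offsets, described below. Rspo3, Znrf3, Porcn and Fzd7 are given array by array because of these paired p-values, a choice made after the values were seen. The differences within pairs that follow were chosen in the same way. In the pairs numbered 1 to 3, TG minus WT was -1.23, -0.39 and -0.52 for Wnt3, and for Wnt16 it was -0.94, -0.39 and -0.39. The pair numbered 1 had the largest difference in both. For Fzd10 the pairs gave -0.59, -0.35 and -0.18, for Rspo3 -0.49, -0.57 and -0.32, and for Znrf3 -0.42, -0.33 and -0.19. Fzd7 was higher by 0.91, 0.16 and 0.28, and Porcn by 0.82, 0.79 and 0.01, and the pair numbered 3 was close to 0 for Porcn. In all 3 pairs 12 of the 39 genes were lower in TG (30.8%, against 16.5% of all genes) and 4 were higher (10.3%, against 14.6%). Markers of suprabasal cells, the differentiated layers of the epidermis, moved in the same direction, with 7 of the 8 measured lower in TG in all 3 pairs. Their mean level ranged from 10.31 to 12.23 in WT and from 9.89 to 12.08 in TG, and their part in the paired Wnt differences was not tested.

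Many ligands read low and many Frizzled receptors read high on the arrays numbered 3. Of the 12 ligands, 8 were there at the lowest value of their genotype in both WT and TG and 0 were at the highest. Of the 9 Frizzled genes 6 were at their highest there and 2, Fzd6 and Fzd10, at their lowest. Over the 39 genes 16 were lowest (41.0%, against 34.5% of all genes) and 13 highest (33.3%, against 23.5%). The median range over the 6 arrays was 0.83 for the Wnt genes and 0.59 for all genes. The arrays numbered 3 were singled out because they stand apart over all genes, so these counts describe the arrays and carry no test.

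By the mean over both genotypes, the largest offsets of array 3 were those of Fzd10, Wnt3 and Wnt16, while in WT alone that of Fzd2 exceeded those of Wnt3 and Wnt16. Fzd10, a receptor gene, read 8.78, 8.75 and 6.14 in WT and 8.19, 8.40 and 5.96 in TG. Wnt3 read 10.34, 10.37 and 7.80 in WT and 9.11, 9.97 and 7.27 in TG. Wnt16 read 7.65, 7.83 and 5.22 in WT and 6.72, 7.44 and 4.83 in TG. Array 3 minus the mean of arrays 1 and 2 of the genotype was negative for each of them, at -2.63, -2.56 and -2.52 in WT and at -2.34, -2.27 and -2.24 in TG. Wnt5a was lower too, at 6.87, 7.08 and 5.51 in WT and 6.58, 6.86 and 5.74 in TG. Smaller offsets in the same direction were seen for Wnt11, Wnt6, Wnt10a, Rnf43 and Wnt4, with means over the genotypes between -0.95 and -0.62.

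Fzd2 and Fzd3 went the other way. Fzd2 read 8.63, 8.03 and 10.94 in WT and 10.11, 8.04 and 10.77 in TG. Array 3 was the highest in both genotypes, and TG array 1 lay much closer to it than to TG array 2. Fzd3 read 7.29, 7.33 and 9.01 in WT and 8.18, 6.92 and 8.96 in TG. Fzd7, at 8.69, 8.92 and 9.96 in WT and 9.60, 9.08 and 10.23 in TG, followed the same order, with a mean offset of 1.02. Fzd4, Fzd8 and Tcf7l2 were also highest on the arrays numbered 3, with offsets in WT of 1.57, 1.21 and 1.13 and in TG of 0.43, 0.76 and 0.56. TG array 1 lay between TG arrays 2 and 3 for all 6 genes with the largest offsets, Fzd10, Wnt3, Wnt16, Fzd2, Fzd3 and Wnt5a. By contrast the offsets of Ctnnb1 (-0.15) and Lrp5 (0.12) were small.

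**Figure D4:**
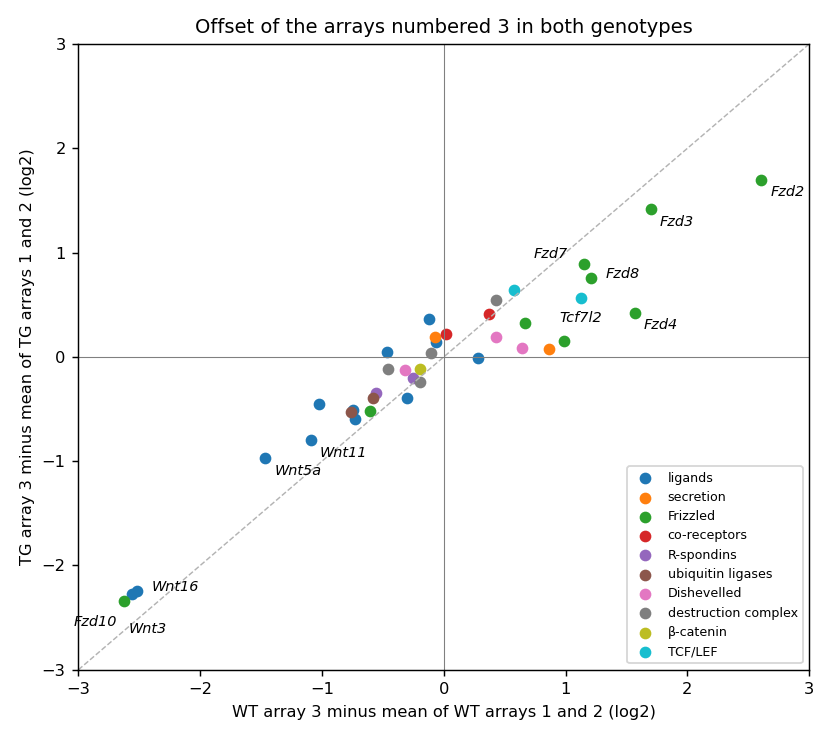
Each point is a Wnt gene, with the log2 value on WT array 3 minus the mean of WT arrays 1 and 2 on the horizontal axis, the same offset in TG on the vertical axis, colours for roles and a dashed line of equality. Fzd10, Wnt3 and Wnt16 lie at the lower left beyond -2.24 in both genotypes, and Fzd2 (2.61 in WT and 1.69 in TG) and Fzd3 at the upper right.

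Mean levels of several marker lists moved with these offsets. The mean of the 12 measured bulge markers was 10.18, 10.20 and 11.44 in WT and 11.16, 10.22 and 11.15 in TG. That of the 8 suprabasal markers, all measured, was 12.14, 12.23 and 10.31 in WT and 10.97, 12.08 and 9.89 in TG. For T cells, which reside in mouse epidermis, 5 of 7 listed markers were measured, with means of 8.30, 8.89 and 7.04 in WT and 7.70, 9.20 and 6.79 in TG. The suprabasal and T-cell means were lowest on the arrays numbered 3 in both genotypes. The bulge mean was highest on WT array 3, and in TG arrays 1 and 3 were both high. The bulge markers did not move as 1 set. Of the 12, 4 were highest on the arrays numbered 3 in both genotypes, 2 (Itga6 and Krt14) were lowest and 6 were neither. Endothelial markers, 5 of 5 measured, had means of 5.44, 5.30 and 6.02 in WT and 5.58, 5.60 and 6.20 in TG, and all 5 were highest on the arrays numbered 3. The mean of the upper follicle markers, 4 of 5 measured, was 10.47, 10.49 and 10.17 in WT and 10.75, 10.81 and 10.23 in TG. On the arrays numbered 3, 2 of these 4 were lowest in both genotypes and 1, Lgr6, was highest. The mean of the Langerhans cell markers, 5 of 6 measured, was 8.10, 8.04 and 7.98 in WT and 8.01, 8.35 and 7.69 in TG. Of these 5, 3 were lowest on the arrays numbered 3 in both genotypes, and 2, H2-Aa and Mfge8, were not. Melanocyte markers, 6 of 6 measured, ranged from 6.22 to 7.46 in WT and from 6.62 to 7.14 in TG, lowest on array 3 in WT and highest on it in TG. No detection value was used, so no marker is called absent. The part of these markers in the Wnt values was not tested.

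Promoter sequence is shown for a gene of each direction of offset with an entry in the RefSeq table: Wnt3 (chr11:103773925-103774174, plus strand), Wnt16 (chr6:22287977-22288226, plus strand) and Fzd10 (chr5:128600856-128601105, plus strand) were low on the arrays numbered 3, and Fzd7 (chr1:59481897-59482146, plus strand) was high. Each run is the 250 bases before the start in GRCm38.p6, and capitals mark the GC box on either strand.
Wnt3: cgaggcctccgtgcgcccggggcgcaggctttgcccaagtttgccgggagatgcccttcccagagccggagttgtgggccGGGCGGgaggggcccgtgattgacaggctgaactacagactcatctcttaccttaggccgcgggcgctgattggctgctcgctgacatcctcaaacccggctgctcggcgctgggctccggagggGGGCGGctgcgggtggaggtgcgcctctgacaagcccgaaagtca
Wnt16: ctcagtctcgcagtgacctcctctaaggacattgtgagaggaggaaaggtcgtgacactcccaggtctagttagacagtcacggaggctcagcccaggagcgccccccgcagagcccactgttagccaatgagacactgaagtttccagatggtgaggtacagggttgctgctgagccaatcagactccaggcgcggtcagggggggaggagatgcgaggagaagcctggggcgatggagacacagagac
Fzd10: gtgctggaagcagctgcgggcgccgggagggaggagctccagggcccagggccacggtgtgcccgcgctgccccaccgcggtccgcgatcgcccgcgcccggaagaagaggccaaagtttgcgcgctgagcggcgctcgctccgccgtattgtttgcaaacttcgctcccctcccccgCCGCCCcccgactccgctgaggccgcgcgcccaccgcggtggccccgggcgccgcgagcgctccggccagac
Fzd7: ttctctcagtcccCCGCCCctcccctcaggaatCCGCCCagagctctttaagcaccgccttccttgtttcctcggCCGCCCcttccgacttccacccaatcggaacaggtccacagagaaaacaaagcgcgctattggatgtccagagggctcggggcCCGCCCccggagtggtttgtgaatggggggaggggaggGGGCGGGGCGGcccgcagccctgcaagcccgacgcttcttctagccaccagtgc
The GC box was found 6 times for Fzd7, counting overlaps, 2 times for Wnt3, 1 time for Fzd10 and 0 times for Wnt16. The TCF/LEF core and the AP-1 motif were found in none of them. These windows held 22 CG dinucleotides for Wnt3, 9 for Wnt16, 37 for Fzd10 and 17 for Fzd7. A match is a description of the letters and was not tested against the values.

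The rest of the pathway was read from a list of 83 further genes, of which 80 were measured. None passed the adjusted threshold (0 of 80 in limma, and 0 of 80 with arrays paired). At an unadjusted p under 0.05, 2 were higher in TG (2.5%, against 1.93% of all genes) and 0 lower (against 0.843%), and the median difference was 0.06. With arrays paired, 5 were higher (6.25%, against 4.59%) and 2 lower (2.5%, against 3.86%). The higher ones without pairing were Sostdc1 and Ctbp2. Sostdc1, which encodes a secreted antagonist of Wnt and BMP signals also known as Wise, read 10.71, 10.77 and 10.92 in WT and 11.60, 11.15 and 11.35 in TG. All its TG arrays lay above all WT arrays, with a difference of 0.57 ± 0.16 (SE, unadjusted p = 0.00958, adjusted p = 0.99996 in limma). Ctbp2, encoding a nuclear co-repressor, differed by 0.55 ± 0.23 with overlap (unadjusted p = 0.0477), and its p rose above 0.05 when any 1 of WT arrays 1 and 2 and TG arrays 1 and 3 was left out, to between 0.113 and 0.154. The genotypes also did not overlap for Csnk1e (0.27 ± 0.12), a kinase gene of the cytoplasmic relay, and Ccnd1 (0.29 ± 0.16), the cyclin D1 gene often listed as a Wnt target, both higher in TG, nor for Wnt2b (-0.22 ± 0.12) and the β-catenin cofactor gene Bcl9l (-0.24 ± 0.12), both lower. Without overlap there were thus 3 genes higher (3.75%, against 3.99% of all genes) and 2 lower in TG (2.5%, against 3.21%), shares below those over all genes.

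Other receptor, factor and antagonist genes also differed widely between arrays of 1 genotype. Lgr5, a receptor of R-spondins and a stem cell marker, read 7.21, 7.45 and 10.72 in WT and 9.18, 7.04 and 10.20 in TG, with array 3 the highest of both genotypes. Tcf7l1, encoding the bulge factor TCF3, read 7.83, 7.10 and 9.44 in WT and 9.49, 7.57 and 9.34 in TG, where TG array 1 was the highest array. Nkd2, a feedback inhibitor gene, was lowest on the arrays numbered 3, at 9.27, 9.18 and 7.34 in WT and 7.51, 8.49 and 6.89 in TG, with a difference of -0.97 ± 0.61 (SE, unadjusted p = 0.161). Its pairs gave -1.76, -0.69 and -0.45, with an unadjusted p of 0.0122 and an adjusted p of 0.538 in limma with arrays paired. Lgr5 and Tcf7l1 were named after their values were seen.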

How the data were processed

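RNA of sorted hair follicle stem cells was measured on 6 Affymetrix Mouse Gene ST arrays, 3 per genotype, grouped by the sample titles. The values are the authors' deposited log2 expression values, and their scale was read from their range. Transcriptome Analysis Console and Expression Console 1.4.1 are listed in the submitters' processing notes without settings, and log base, summarisation and scaling were not stated. No values were filtered or scaled again. Of 41345 features, 23521 had exactly 1 symbol, 1814 several and 16010 none, which gave 22180 genes by the brightest feature.

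TG was compared with WT over all genes with limma (version 3.58.1, R 4.3.3; lmFit, then eBayes, genotype as the only term, two-sided, Benjamini-Hochberg adjustment over all genes). The unpaired fit was tested on simulated data with independent noise for each gene and array. That setting lacked the correlation between same-numbered arrays given next, and the paired fit was not simulated. Deviations from genotype means correlated between same-numbered arrays at 0.20, 0.67 and 0.74, each above the limit of 0.1, so pairing by number was used as a second fit. The pairing comes from this check, not from the labels, and WT array 1 matched TG array 2 more closely (0.50). With 3 arrays per genotype, precision is limited. Alternatives were the pairing, other scalings, a filter on dim genes, other feature choices, robust moderation and leaving out arrays.

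The members, gene lists, alternatives and naming rule were chosen with earlier results of these data known. Under the rule all members could be named, with array values for those with an unadjusted p under 0.05 or no overlap, the 6 with the largest offset of array 3 and 6 fixed genes (Ctnnb1, Axin2, Lef1, Lrp5, Lrp6 and Wls). Of the other Wnt genes up to 4 of the smallest p per list could be named.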

Additional observations from a re-analysis of the deposited data

How the results depend on the processing

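No member and no other Wnt pathway gene passed the adjusted threshold under any of the alternatives. The median member difference, -0.044, turned to 0.025 without WT array 1 and was -0.109 and -0.119 without WT arrays 2 and 3. The count of members at an unadjusted p under 0.05 was 8 of 39 with the replicate block. It ranged from 0 to 5 of 39 when arrays were left out (5 without both arrays numbered 3), and was 1 in the others. The share over all genes in either direction moved too. It was 8.449% with the replicate block, from 1.294% to 5.92% when arrays were left out and from 2.435% to 3.363% in the others. The count without overlap was 3 with quantile normalization (Axin1, Dvl3 and Wnt10b), 3 with median centring (Ctnnb1, Porcn and Wnt10b) and from 1 to 18 when arrays were left out, where fewer arrays overlap less by construction. It was 2 without WT array 1, 12 without WT array 3, 4 without TG array 2, 7 without TG array 3 and 18 without both arrays numbered 3. The shares without overlap over all genes were not computed under these alternatives. These counts therefore cannot be set against a background and say nothing particular about the Wnt genes. Lrp5 turned to -0.0102 with quantile normalization and Rnf43 to 0.0064 with median centring. In the filter on dim genes 34 members were left. When arrays were left out, 15 of 39 members kept their direction throughout and 24 did not. Among those that kept it the size still moved, from 0.15 to 0.83 for Fzd7, -0.72 to -0.14 for Rspo3, 0.066 to 0.66 for Tcf7l2, -0.53 to -0.098 for Lef1 and 0.39 to 0.83 for Porcn. Ctbp2 had an unadjusted p of 0.0548 with quantile normalization, 0.0553 with the filter on dim genes, 0.0524 with all features tested, 0.0565 with robust moderation and 0.0798 without both arrays numbered 3. The ranges that follow are those of the genes that changed direction when arrays were left out. For ligands the differences ran from -1.57 to 0.042 for Wnt3, -0.15 to 0.18 for Wnt3a, -0.58 to 0.23 for Wnt5a, -0.24 to 0.0086 for Wnt5b, -0.19 to 0.40 for Wnt6, -0.046 to 0.066 for Wnt7a, -0.14 to 0.16 for Wnt7b, -0.21 to 0.24 for Wnt10a, -0.33 to 0.30 for Wnt11 and -1.41 to 0.18 for Wnt16. For receptors they ran from -0.15 to 0.42 for Fzd1, -0.14 to 1.31 for Fzd2, -0.33 to 0.71 for Fzd3, -0.56 to 0.24 for Fzd4, -0.14 to 0.28 for Fzd5, -0.15 to 0.23 for Fzd6, -0.62 to 0.19 for Fzd8, -1.25 to 0.41 for Fzd10 and -0.047 to 0.068 for Lrp5. For the others they ran from -0.13 to 0.029 for Rspo1, -0.28 to 0.15 for Rnf43, -0.24 to 0.15 for Dvl1, -0.12 to 0.10 for Dvl2, -0.066 to 0.31 for Apc, -0.31 to 1.37 for Cd34, -0.18 to 0.062 for Itga6 and -0.0033 to 0.11 for Krt15. The cause of these changes was not tested. With 3 arrays per genotype and no detection values, low values can understate a difference.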
